A study of Sus scrofa with 14 samples.

Results

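The genes described here are 42 genes of protein synthesis: the ribosomal proteins of the cytosol and of mitochondria, and the factors that start and extend the peptide chain. They were taken as every gene whose pig symbol begins with RPL, RPS, MRPL, MRPS, EEF or EIF, leaving out the RPS6K kinases, among the 2389 genes that a probe of the array could be matched to by its RefSeq accession. The set holds 14 proteins of the cytosolic small subunit (RPS), 18 of the cytosolic large subunit (RPL), 3 of the mitochondrial ribosome (MRPL and MRPS), 6 initiation genes (EIF) and 1 elongation gene (EEF). All 42 were bright enough to be tested. Ribosomal protein and factor genes without a matched accession were not analysed here.

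RNA was extracted from knee meniscus, a pad of fibrocartilage, of male Wuzhishan pigs listed as 6 to 7 months old. The sham group is 7 pigs examined 24 weeks after a sham operation, and the osteoarthritis group (OA) is 7 pigs examined 24 weeks after the anterior cruciate ligament had been operated on. Each pig's RNA was labelled with Cy3 and read on 1 single-colour array. The comparison asks which transcripts differ in level between operated and sham knees. The labels do not say what the ligament surgery was, which part of the meniscus was taken or how far the joint had degenerated.

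A ribosome is built from a small subunit, which reads the messenger RNA, and a large subunit, which joins the amino acids. Initiation factors bring the small subunit to the start codon, and elongation factors deliver the transfer RNAs codon by codon. Mitochondria keep a ribosome of their own for the few proteins encoded in their genome. Messenger RNAs of cytosolic ribosomal proteins and of EEF1A1 are very abundant, and most of them carry a pyrimidine tract at the 5′ end that couples their translation to growth signalling through mTOR. In a matrix-secreting tissue such as the meniscus, this machinery makes the collagens and proteoglycans.

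The sham arrays lay on slides 1 and 2, and the OA arrays on slides 3 (OA 1), 4 (OA 2 to OA 5) and 5 (OA 6 and OA 7), with a slide read from a shared scan time in the file headers. Every slide, and every scan day, carried arrays of a single group, so group and slide cannot be told apart in any comparison below. The raw 75th percentile of signal ran from 417.8 to 621.6 on the sham arrays and from 156 to 491.7 on the OA arrays, and the share of probes well above background from 89.7% to 95.2% and from 67.9% to 89.3%. The mean signals of 7 measured matrix genes that mark the tissue ran from 430 to 90700 in arbitrary units. The brightest were DCN, decorin, at 90700 and ACAN, the aggrecan core protein, at 71700. Of 16 measured skeletal muscle markers 2 passed the test, both higher in OA and dim (MYOD1 at 1.44 and TNNI1 at 0.71 on the log2 scale). The summed level of the 16, relative to each array's 75th percentile, ran from 15.9 to 44.8 in sham and from 13.8 to 27.5 in OA. That sum is of linear values, so ACTA1, the brightest of the 16 with a mean signal of 5370, weighed most in it. LEP, 1 of 9 adipocyte markers, and KLF1, 1 of 2 erythroid markers, passed with higher OA values, at 0.74 and 1.18. Of all named genes tested, 3.23% passed. LEP had 2 probes, of which 1 was positive, and 6 of the 9 adipocyte markers were positive. KLF1 was dim too, with a mean signal of 41.3, and the other erythroid marker did not pass. Summed levels ran from 7.21 to 22.3 in sham and from 8.94 to 49.4 in OA for adipocytes, and from 0.114 to 0.28 and from 0.216 to 0.4 for erythroid cells. The part of muscle, fat, blood or other cells in the values below was not tested.

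None of the 42 genes passed the test between OA and sham (limma adjusted p from 0.097 to 0.98, threshold 0.05), where 3.23% of all 2258 named genes tested did (2.97% higher and 0.266% lower in OA). At an unadjusted p under 0.05 there were 5 genes, 4 with a higher and 1 with a lower OA mean, against 15.3% of all named genes. The lower one was MRPS18B, which was well above background on only 3 of 7 OA arrays. On no gene did the 7 OA arrays and the 7 sham arrays separate without overlap, which 1.9% of named genes did. For 40 of the 42 the 95% interval of the change lay within 2-fold in both directions (between -1 and 1 on the log2 scale), which held for 1591 of the 2258 named genes. The exceptions were MRPS18B and EIF2AK2. These intervals are from single fits and are not widened for the number of genes.

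**Figure D1:**
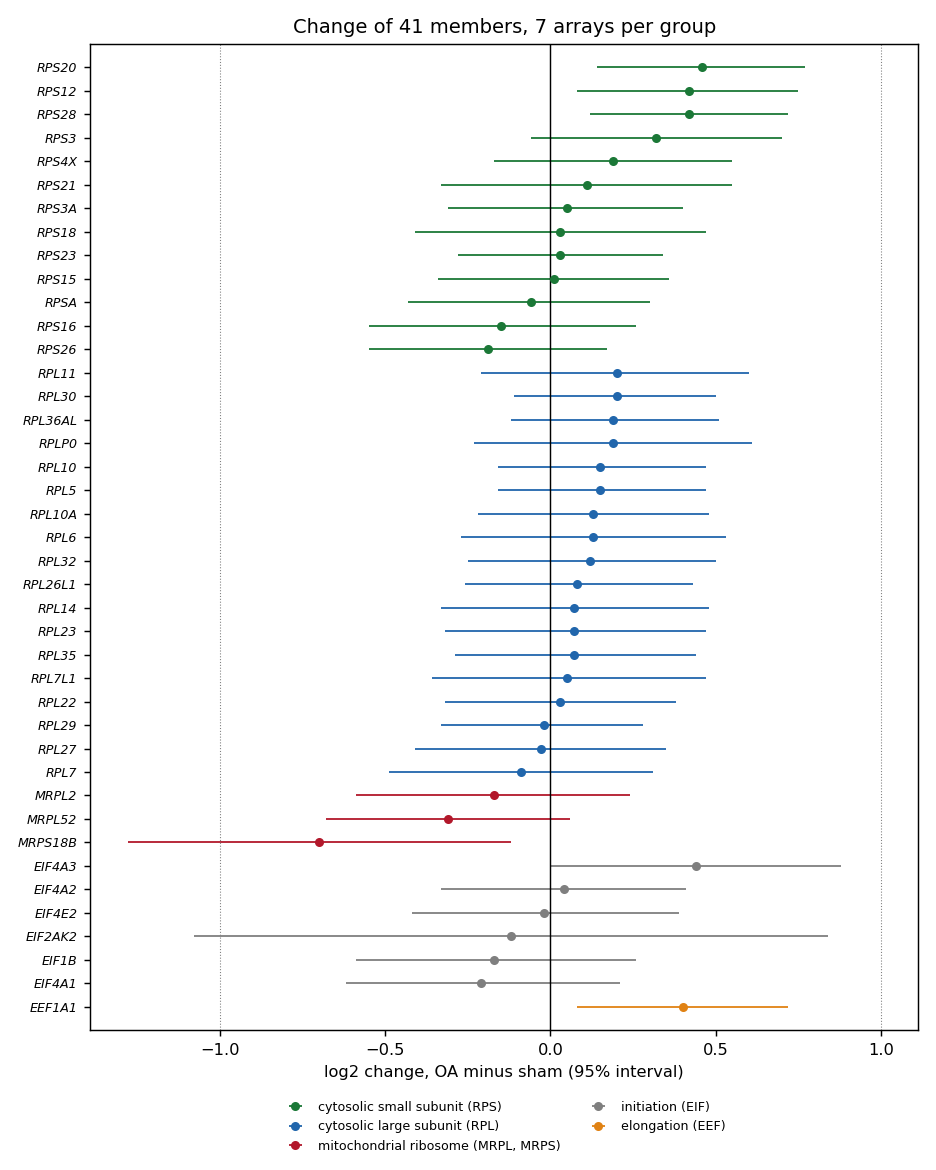
Log2 change from sham to OA (x axis, OA minus sham) for 41 of the 42 genes (y axis, grouped by class and coloured by it), with bars for the 95% interval from the limma fit on 7 arrays per group. Dotted lines mark a 2-fold change; only the bars of MRPS18B and EIF2AK2 cross 1 of them, and those of RPS20, RPS28, RPS12 and EEF1A1 lie above 0.

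Values below are log2 units relative to the array's own 75th percentile, so 7 means that the probe was much brighter than most probes of that array. The signal of a probe depends on its sequence as well as on its transcript, so levels of different genes are not ranked. RNA was taken from whole tissue, so fewer cells of a type and less RNA per cell cannot be told apart.

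In the small subunit the 3 genes with the smallest p were RPS20, RPS28 and RPS12, structural proteins of the subunit that reads the message. RPS20 ran from 7.31 to 7.74 on the sham arrays, with a median of 7.43, and from 7.53 to 8.24 on the OA arrays, with a median of 8.01. All 7 OA arrays lay above the sham mean and 6 above the highest sham array. The change was 0.46 ± 0.15 (SE, n = 7 per group), a 1.37-fold difference of means, with a limma adjusted p of 0.097. RPS28 ran from 7.22 to 7.63 in sham (median 7.40) and from 7.37 to 7.97 in OA (median 7.89), a change of 0.42 ± 0.14 (SE; limma adjusted p = 0.11). RPS12 ran from 7.23 to 7.72 in sham (median 7.46) and from 7.44 to 8.22 in OA (median 7.96), a change of 0.42 ± 0.16 (SE; limma adjusted p = 0.15). For RPS28 and RPS12 too, 6 of 7 OA arrays were above every sham array, and in all 3 genes the exception was OA 5. The sizes depended on the scaling: with quantile normalization, and likewise in the authors' table, RPS20 stood at 0.19, RPS28 at 0.16 and RPS12 at 0.12. With the mean of its probes RPS12 also stood at 0.12.

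RPS3, which sits where the message enters the small subunit, ran from 7.13 to 7.84 in sham and from 7.24 to 8.17 in OA, and its change was 0.32 ± 0.18 (SE; limma adjusted p = 0.35), or 0.06 with quantile normalization. RPS4X, the X-linked copy of RPS4, stood at 0.19 ± 0.17. RPS26, at the exit side of the message channel, stood at -0.19 ± 0.17, with 6 of 7 OA arrays under the sham mean. RPS16 stood at -0.15 ± 0.19 and RPSA, also known as the laminin receptor precursor, at -0.06 ± 0.17. The values of RPS15, RPS18, RPS21, RPS23 and RPS3A ran from 0.01 to 0.11. Over the 14 genes 11 changes were positive, with a median of 0.08, beside 1141 of 2258 and a median of 0.00 over all named genes. With quantile normalization 6 of the 14 were positive and the median was -0.03.

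**Figure D2:**
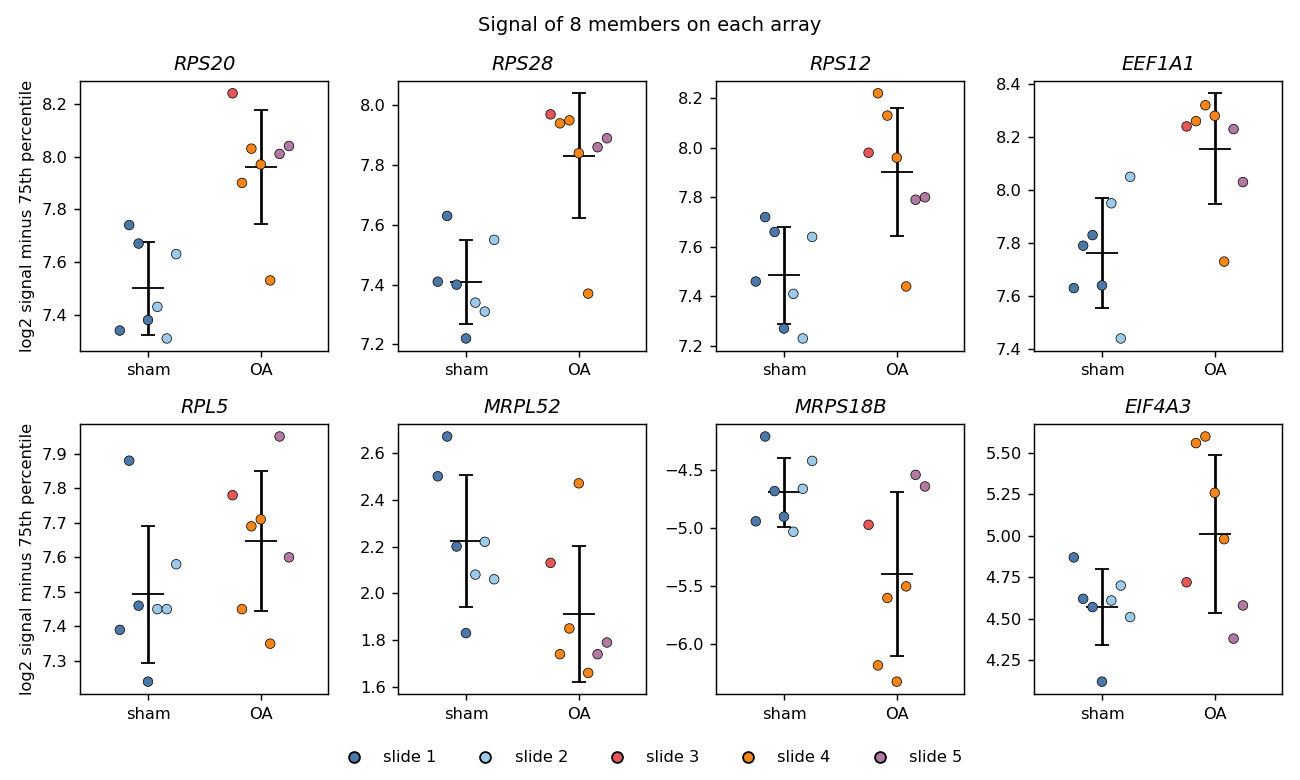
Log2 signal minus the array's 75th percentile (y axis, a separate range in each panel) of 8 genes on the 7 sham and 7 OA arrays (x axis), coloured by slide; the horizontal bar is the mean and the vertical bar 1 SD. In RPS20, RPS28 and RPS12, 6 of the 7 OA points lie above all sham points, and the low OA point is OA 5; MRPS18B and EIF4A3 differ more between OA slides 4 and 5 than between the groups.

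In the large subunit no gene had an unadjusted p under 0.05. The changes of the 18 genes lay in a narrow band, from -0.09 to 0.20 on the log2 scale, with limma adjusted p from 0.47 to 0.95. RPL30 had the smallest p, with sham arrays from 7.12 to 7.60 and OA arrays from 7.22 to 7.68, a change of 0.20 ± 0.14 (SE). RPL11 and RPL5, which carry the 5S ribosomal RNA into the subunit and bind MDM2 when assembly fails, stood at 0.20 ± 0.19 and 0.15 ± 0.15. RPL11 ran from 7.23 to 8.09 in sham and from 7.28 to 8.16 in OA, so the groups covered almost the same range. RPL36AL, a copy of RPL36A without introns, stood at 0.19 ± 0.15, and RPL10, which joins late in assembly near the peptidyl site, at 0.15 ± 0.15.

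RPLP0, the base of the stalk that recruits elongation factors, is widely used as a reference gene. It ran from 7.05 to 7.63 in sham (median 7.23) and from 6.75 to 8.16 in OA (median 7.46). The OA arrays therefore held both its lowest and its highest value, on OA 5 and OA 1, and the SD was 0.217 in sham and 0.437 in OA. Its change was 0.19 ± 0.20 (SE; limma adjusted p = 0.64), but 0.08 without OA 1, 0.32 without OA 5 and 0.55 without slide 4. RPL6 stood at 0.13 ± 0.19 and RPL7 at -0.09 ± 0.19, with RPL7 the lowest value of the class. RPL27 and RPL29 stood at -0.03 ± 0.18 and -0.02 ± 0.15. The other positive values belonged to RPL10A, RPL14, RPL22, RPL23, RPL26L1, RPL32, RPL35 and RPL7L1, between 0.03 and 0.13. In all 15 of the 18 were positive, with a median of 0.10, but with quantile normalization 3 were, with a median of -0.04.

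The elongation gene EEF1A1 encodes the factor that delivers transfer RNAs to the ribosome. It ran from 7.44 to 8.05 in sham (median 7.79) and from 7.73 to 8.32 in OA (median 8.24). OA 5 was again the lowest OA array, 5 OA arrays lay above the highest sham array, and the groups overlapped. The change was 0.40 ± 0.15 (SE, n = 7 per group; unadjusted p = 0.018, limma adjusted p = 0.16), and with quantile normalization it was 0.06.

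All 3 mitochondrial ribosomal proteins had a lower OA mean, though MRPS18B met the filter for testing through its sham arrays. Their brightest probes had mean signals of 11.2 for MRPS18B, 177 for MRPL2 and 1540 for MRPL52. Dim probes were lower in OA across the array. Median changes were -0.363, -0.209 and -0.124 in the 3 dimmest of 10 equal bins of all tested probes. The values of MRPL52 were positive on every array, above the level used for scaling. The part of probe brightness in these 3 changes was not tested. Bins 8, 9 and 10, the brightest, had medians of -0.00523, 0.0286 and 0.095. The bin of MRPL2 was not tested. MRPL52, of the large mitochondrial subunit, ran from 1.83 to 2.67 in sham (median 2.20) and from 1.66 to 2.47 in OA (median 1.79). Its change was -0.31 ± 0.18 (SE; limma adjusted p = 0.35), 6 of 7 OA arrays were under the sham mean and 4 under the lowest sham array. MRPL2, of the same subunit, stood at -0.17 ± 0.20, with sham from -1.51 to -0.37 and OA from -1.69 to -0.80. MRPS18B, of the small mitochondrial subunit, was dim, with a mean signal of 11.2. It was well above background on 7 of 7 sham arrays but 3 of 7 OA arrays, so its sham arrays alone met the filter of 7 arrays. Its fitted change of -0.70 ± 0.27 (SE; unadjusted p = 0.021, limma adjusted p = 0.17) therefore rests in part on values at the background and has no known size. Its OA values were -5.90 on average on slide 4 and -4.59 on slide 5, where the sham slides averaged -4.68 and -4.70. With normexp background correction its sign turned, to 0.69, and MRPL2 stood at 0.01, whereas MRPL52 stayed negative at -0.41. The median of all named genes was 0.19 in that setting. Relative to it MRPS18B stood at 0.51, MRPL2 at -0.18 and MRPL52 at -0.60.

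Among the 6 initiation genes 2 changes were positive, and the median was -0.07. EIF4A1 and EIF4A2 are the RNA helicases that unwind the start of the message. EIF4A1 ran from 3.11 to 3.92 in sham and from 2.75 to 3.88 in OA, a change of -0.21 ± 0.20 (SE; limma adjusted p = 0.60), and 4 OA arrays lay under the lowest sham array. EIF4A2 stood at 0.04 ± 0.18. EIF4A3, a related helicase that works in the exon junction complex rather than in initiation, ran from 4.12 to 4.87 in sham (median 4.61) and from 4.38 to 5.60 in OA (median 4.98), a change of 0.44 ± 0.21 (SE; limma adjusted p = 0.26). Its mean was 5.35 on slide 4 and 4.48 on slide 5, both OA slides, and without slide 4 the change was -0.01.

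EIF1B, a close copy of the start-codon selection factor EIF1, stood at -0.17 ± 0.20. EIF4E2, which binds the message cap and represses translation, stood at -0.02 ± 0.19, with sham from -0.70 to 0.31 and OA from -0.60 to 0.18. EIF2AK2 is the kinase PKR, which is switched on by double-stranded RNA and blocks initiation, and whose gene is induced by interferon. It varied more between pigs than any other of the 42 genes within either group, with an SD of 1.03 in sham and 0.877 in OA, where the other 41 ran from 0.142 to 0.477 and from 0.154 to 0.709. Its sham arrays ran from 0.61 to 3.34 and its OA arrays from 1.05 to 3.11. The groups covered nearly the same range, and the change was -0.12 with a 95% interval from -1.08 to 0.84.

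The sign of the cytosolic ribosomal changes depended on how the arrays were scaled. Counted over both subunits, 26 of 32 genes were positive with the 75th percentile and with median scaling, 9 with quantile normalization, and 9 in the authors' table of log2 values. With normexp background correction 8 of 32 were positive, the median of all named genes moved to 0.19, and 3 of the 32 lay above that median. The medians of the 32 genes were 0.10, -0.04 with quantile normalization and -0.07 with normexp. Of all 42 genes, 8 were positive and 11 negative under the 75th percentile, quantile and normexp settings alike. The 8 were RPS20, RPS28, RPS12, RPS3, RPS4X, RPL36AL, EEF1A1 and EIF4A3. RPS20 stood at 0.46, 0.19 and 0.27 under the 3 settings in turn, the last of them 0.08 above the median of all named genes under normexp. RPS28, RPS12, EEF1A1 and EIF4A3 also lay above that median, by 0.05, 0.09, 0.10 and 0.02. RPS3, RPS4X and RPL36AL lay below it, at -0.02, -0.16 and -0.17 relative to it. The 11 were EIF1B, EIF2AK2, EIF4A1, EIF4E2, MRPL52, RPL27, RPL29, RPL7, RPS16, RPS26 and RPSA. Of the settings run, normexp was the only one with any gene past the threshold: MRPL52, RPS26, EEF1A1 and MRPS18B, 4 of 42, where 34.6% of all named genes passed.

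**Figure D3:**
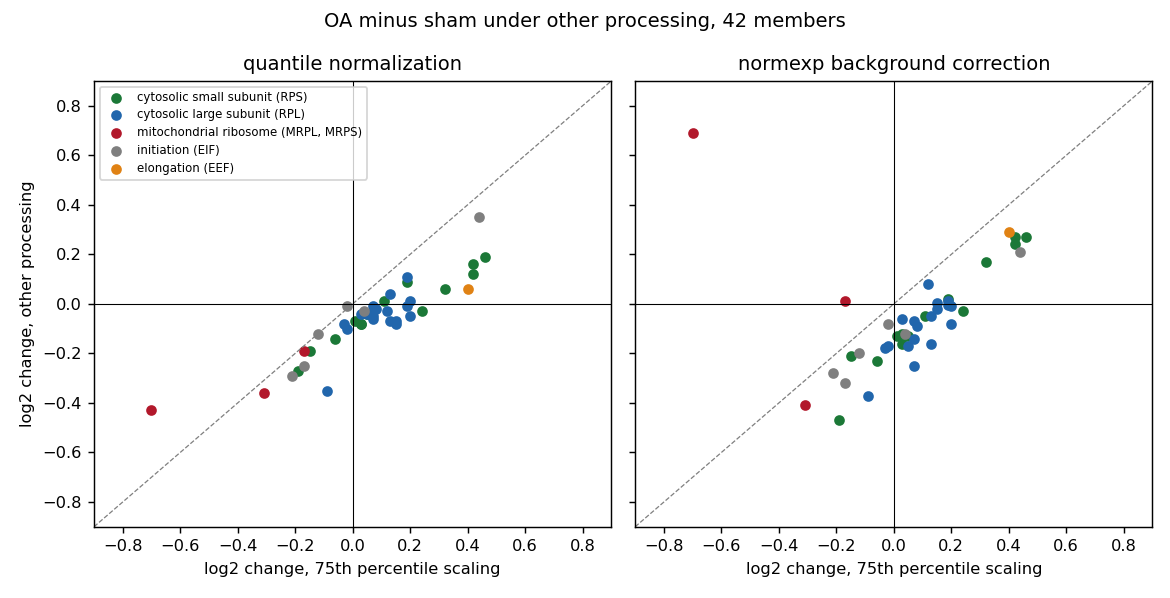
Log2 change from sham to OA of the 42 genes with the 75th percentile of each array (x axis, both panels) against the same change with quantile normalization (left, y axis) and with normexp background correction (right, y axis), coloured by class, with a dashed line of equality. Most cytosolic genes lie right of 0 but under 0 on the y axes; RPS20, RPS28 and RPS12 stay above 0 in both panels, and MRPS18B lies at 0.69 with normexp.

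Several probes for 1 gene gave a second reading of the same transcripts. The 42 genes were read by 226 probes, all of them tested, with 18 probes each for EEF1A1 and RPL5 and 14 each for RPL7 and RPS4X. None of the 226 passed the threshold (lowest limma adjusted p = 0.097), where 3.73% of all 38818 probes did. At an unadjusted p under 0.05 there were 20 member probes, 12 higher and 8 lower in OA, against 19.6% of all probes. Over the 226 probes 116 changes, or 51.3%, were positive and the median was 0.01, beside 45% and -0.05 over all tested probes. With the mean of a gene's probes 20 of the 42 genes were positive, the median of all named genes was -0.07, and 30 of the 42 lay above it, beside 29 with the brightest probe.

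The brightest probe of a gene tended to give the more positive change. Of 35 genes with at least 2 probes, 28 had probes of both signs, and in 25 the brightest probe was above the median of the others, or 71.4%. Among all 1211 named genes with several tested probes that share was 71%, so it was no trait of these genes. Among the 57 member probes with the lowest signal 15 were positive with a median of -0.15, and among the 57 with the highest signal 50 were positive with a median of 0.13. Across the 226 probes the Spearman rho between signal and change was 0.565, which is a description of probes that share arrays, genes and scaling. It was 0.38 after quantile normalization, and 0.246 over all 38818 tested probes. In the brightest 10% of all tested probes the median change was 0.095, near that of the cytosolic ribosomal genes.

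**Figure D4:**
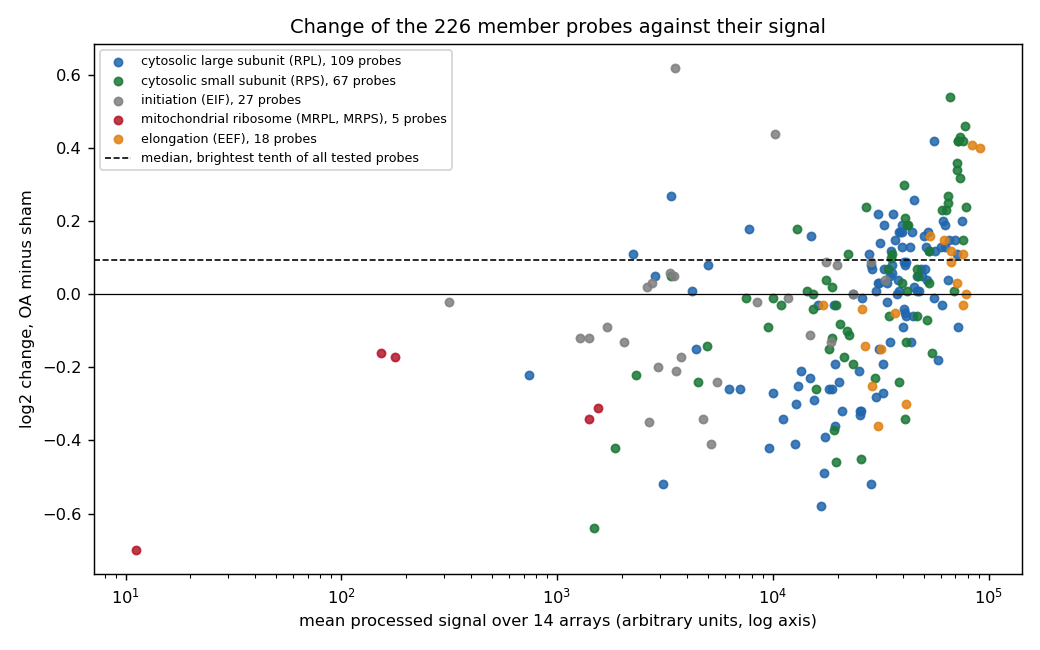
Log2 change from sham to OA (y axis) against the mean processed signal over 14 arrays (x axis, arbitrary units, log axis) for the 226 probes of the 42 genes, coloured by class. Most of the brightest points lie above 0, and the dashed line marks 0.095, the median change of the brightest 10% of all tested probes.

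All 7 probes of RPS20 were positive, from 0.01 to 0.46. Both probes of RPS18 were positive too, at 0.03 and 0.07. RPS28 had 2 probes at 0.42 and a dimmer one at -0.01. RPS12 had 4 positive and 2 negative probes, from -0.34 to 0.43. EEF1A1 split evenly, with 9 positive and 9 negative probes from -0.36 to 0.41; its 2 brightest gave 0.40 and 0.41 and the other 16 gave no unadjusted p under 0.05. RPL5 split 9 and 9 as well, from -0.41 to 0.15, RPS4X 7 and 7, and RPL7 6 and 8.

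RPL6 leaned the other way: 12 of its 13 probes were negative, down to -0.58, and the positive one was the brightest, at 0.13. All 6 probes of RPSA were negative, from -0.64 to -0.01, and so were the 3 of RPS26, RPL29 and MRPL52. RPLP0 had 11 of 13 probes positive, from -0.26 to 0.26, and EIF4A2 5 of 13, from -0.41 to 0.09. EIF4A1 had the highest single value, a probe at 0.62 ± 0.24 (SE; limma adjusted p = 0.16), while its brightest probe gave -0.21 at almost the same signal. Ribosomal protein genes have many processed pseudogenes, and RPL36AL, RPL26L1, EIF1B, EIF4A1, EIF4A2 and EEF1A1 have close paralogs. Probes may read RNA from such copies, and this was not tested.

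**Figure D5:**
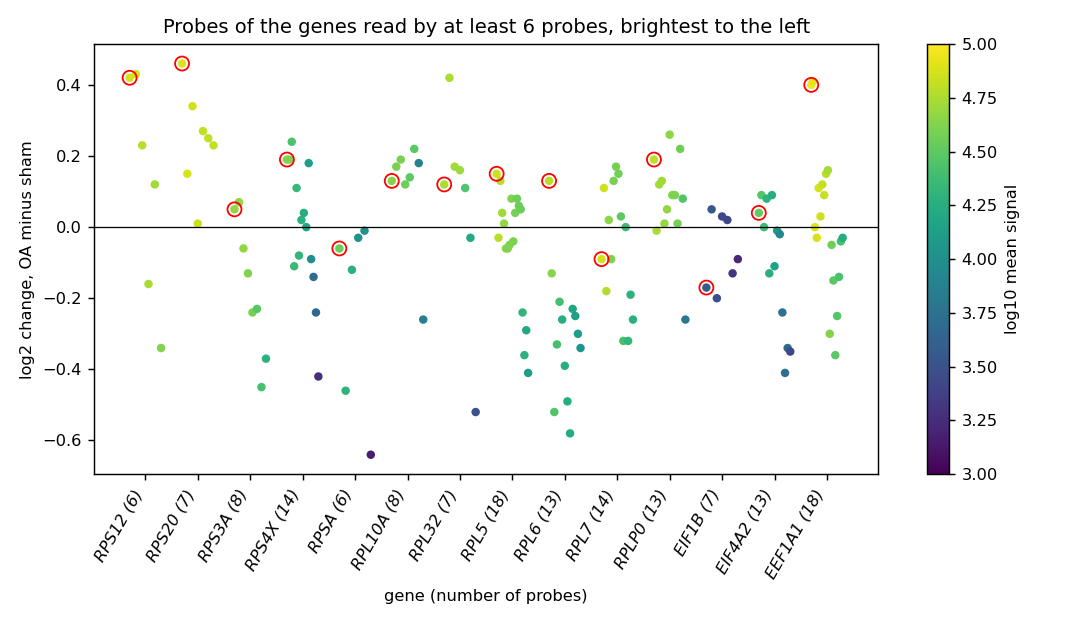
Log2 change from sham to OA (y axis) of each probe of the 14 genes read by at least 6 probes (x axis, with the number of probes), ordered from the brightest probe at the left and coloured by log10 mean signal; the brightest probe of each gene is ringed. The probes of RPS20 all lie above 0, those of RPSA all below, and those of RPL5 and EEF1A1 on both sides.

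The slides of 1 group also differed among themselves. A slide mean covers fewer arrays than the 7 of a group, so slide differences are larger by sampling alone. Their sizes are therefore not on an equal footing with the group difference. For 20 of the 42 genes the difference between the 2 sham slides was larger than that between OA and sham, and for 31 of 42 the difference between OA slides 4 and 5 was. The median size of the difference was 0.09 between the sham slides, 0.20 between these OA slides and 0.14 between the groups. Over all named genes the counts were 1311 and 1441 of 2258, and the median sizes 0.32, 0.37 and 0.25. For RPS20 both slide differences were smaller than that between the groups. Its means were 7.53 and 7.45 on the sham slides and 8.24, 7.85 and 8.02 on slides 3 to 5. RPS28 averaged 7.41 and 7.40 on the sham slides and 7.97, 7.77 and 7.87 on the OA slides, and EEF1A1 7.72 and 7.81 against 8.24, 8.15 and 8.13. Each OA slide was thus above each sham slide for these 3 genes. The same held for others, among them RPS12, RPS3, RPL30, RPL36AL, RPL5 and RPL10, and the share over all named genes was not counted. With the slide as a random block the limma adjusted p values of RPS20, RPS28 and EEF1A1 were 0.366, 0.435 and 0.548. Their changes were then 0.49, 0.44 and 0.40. Without slide 4 RPS20 stood at 0.60 (limma adjusted p = 0.162) and the median of the 32 cytosolic ribosomal genes at 0.25.

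Genes around the ribosome, from lists of partners and regulators, were measured in small numbers. Of these, 0 of 15 passed, where 3.23% of all named genes did, too small a share for so few genes to differ from. TPT1, whose message carries the same 5′ pyrimidine tract, stood at 0.36 ± 0.16 (SE; limma adjusted p = 0.22), with 11 of 17 probes positive. RACK1, a scaffold on the small subunit, stood at 0.00 ± 0.16. VARS2, the mitochondrial valyl-tRNA synthetase, stood at 0.85 ± 0.26 (SE; limma adjusted p = 0.083) on 1 probe, and AIMP1, a scaffold of cytosolic synthetases, at 0.25 ± 0.19. Of 4 genes of ribosome assembly and nucleolar control 1 was positive: MYC stood at 0.16 ± 0.20, BYSL at -0.27 ± 0.17 and DKC1 at -0.22 ± 0.19. In mTOR signalling 1 of 3 genes was positive, and AKT1 stood at -0.57 ± 0.24 (limma adjusted p = 0.20). In the integrated stress response 1 of 3 genes was positive. ATF4, the factor translated when initiation is held back, stood at -0.48 ± 0.25 (limma adjusted p = 0.29) with all 6 probes negative, and NCK1 at -0.56 ± 0.28.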

How the data were processed

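Per the file headers, the deposited files of each array list the intensity of every spot, read with Agilent Feature Extraction 11.0.1.1, with background subtracted and no normalization between arrays. The authors' deposited series table holds log2 values with nearly the same quantiles and a median of 5.99 in each column, following the scanner signal (Spearman rho 0.994 to 1); the sources used here do not give the steps behind it. The processed signal was put on the log2 scale and the 75th percentile of each array, taken over its 43603 non-control probes, was subtracted; 82 marked spots were set missing. The 38818 probes that were well above background on 7 or more of 14 arrays were fitted with limma 3.58.1 in R 4.3.3 (two-sided, Benjamini-Hochberg over all probes), tested on simulated data. Genes were named through RefSeq accessions (Sscrofa11.1 gene table; 5461 of 5779 probes matched), each read by its brightest probe. Normexp used the median spot and background signals with an offset of 50. No slide held both groups.

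The genes and lists were chosen with earlier results of these data known. Named in the text are genes past the threshold, the 5 smallest p per class, the 5 brightest and 5 dimmest, the 5 with most probes (ties kept), and related genes with the smallest p. Values of 1 member and of some related genes are not reported here; the counts include them. Other members were added after their values were seen. Alternatives were other scalings, filters, probe rules, blocks and left-out arrays or slides. Each array was taken as a separate pig because the series description gives 14 pigs. The number of arrays limits the precision.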

Additional observations from a re-analysis of the deposited data

Results flagged for a closer look

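In RPS28 the OA 5 array stood apart from the other 6 OA arrays, at 7.37 where the next lowest was 7.84, a gap of 0.777 of the group's range. The median deviation of the 14 small-subunit genes showed the same array at -0.28 with the next lowest OA array at 0.09, a gap of 0.757 of the range. These were 2 of 54 groups of arrays checked, and chance gives such a gap in about 1 in 20. The 2 flags are not separate, since RPS28 is 1 of the 14 genes. Without OA 5 the change of RPS28 was 0.50 (limma adjusted p = 0.0686) and that of RPS20 0.53 (limma adjusted p = 0.0679), and 0 of the 42 genes passed. OA 5 was the lowest OA array in both genes, so leaving it out could only raise their changes.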

How the results depend on the processing

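In each of the other 26 settings, the count of genes past the threshold was 0; with normexp it was 4. Of 23 genes chosen by rule, 7 kept their sign in every setting run: RPS20, RPS28, RPS12, RPS3, RPL36AL, EEF1A1 and MRPL52. With quantile normalization and in the authors' table the values were 0.06 for EEF1A1, -0.03 for EIF4A2, -0.07 for RPL10 and RPL6, -0.05 for RPL11, -0.08 for RPL5 and -0.01 for RPLP0. With normexp the class medians were -0.07 for the large subunit and 0.01 for the mitochondrial ribosome, and EIF4A2 stood at -0.12, MRPL2 at 0.01, MRPS18B at 0.69, RPL10 at -0.02, RPL11 at -0.08, RPL30 at -0.01, RPL6 at -0.05 and RPLP0 at -0.003. Under normexp the median of all named genes was 0.19. With the mean of all probes EEF1A1 stood at 0.01, EIF4A1 at 0.16, EIF4A2 at -0.10, RPL30 at -0.13, RPL5 at -0.05, RPL6 at -0.30 and RPS4X at -0.01. With the slide as a random block EIF4A2 stood at -0.01 and EIF4E2 at 0.01. Without slide 4 EIF4A2 stood at -0.10, EIF4A3 at -0.01, EIF4E2 at 0.02 and RPL7 at 0.25. Without slides 3 and 4 EIF1B stood at 0.20, EIF2AK2 at 0.09, EIF4A3 at -0.09, MRPS18B at 0.10 and RPL7 at 0.27. Leaving out 1 array at a time moved EIF2AK2 between -0.35 and 0.10, EIF4A2 between -0.05 and 0.12, EIF4E2 between -0.10 and 0.07 and RPL7 between -0.18 and 0.02. The cause of these moves was not tested. With the replicate number as a block 0 of the 42 genes passed. Same-numbered arrays had correlations from -0.192 to 0.275, with 2 of 7 pairs over 0.1 and 0 of 7 sham arrays closest to their own number. Under that block the SE of EIF2AK2 fell from 0.45 to 0.24, whereas that of EEF1A1 rose from 0.15 to 0.18. Whether same-numbered arrays shared more than a number was not settled. Dim signal limits MRPS18B, and slides limit every comparison.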

Other observations

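The arrays differed in the level of the whole set. The median deviation of the 42 genes from their own means was highest in sham on sham 2, at 0.23, and lowest on sham 4, at -0.30, both on slide 1. In OA it was highest on OA 6, at 0.20, and lowest on OA 5, at -0.25. The medians of all named genes on these 4 arrays were 0.09, 0.00, 0.06 and -0.04. The array range of the 42 genes was therefore alike in the groups, from -0.30 to 0.23 in sham and from -0.25 to 0.20 in OA.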
